A study of Mus musculus with 57 samples.

Results

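The genes described here are 32 genes of glycolysis and of the response to low oxygen, followed in mouse microglia with and without the purinergic receptor P2RY12. They were taken by gene symbol from a list and not by a cut on a measured value. The list was drawn up with earlier results of these data known. All 32 were found among the 50565 rows of the count table of one experiment and the 53278 rows of the other. The list holds 16 enzymes of the path from glucose to lactate, a pyruvate dehydrogenase kinase, 3 transporters, 2 regulatory kinases and 10 genes of the hypoxia response. All 32 also passed the filter on low counts in both experiments.

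RNA was sequenced from CD11b-positive brain cells, labelled as microglia, of adult wild-type (WT) mice and of littermates lacking P2RY12 (KO). The sex experiment had 4 WT and 5 KO animals of each sex, with no treatment label. In the LPS experiment WT and KO samples were labelled either LPS, for bacterial lipopolysaccharide injected into the peritoneum at 1 mg/kg, or ns, a term that the labels do not define; sex and time after injection are not given there. After 2 WT LPS libraries that were nearly alike had been summed to 1, this experiment had 8 samples per group, of which 6 WT ns, 6 WT LPS, 8 KO ns and 8 KO LPS samples entered the fit. The labels do not say which LPS libraries came from separate animals, so p-values there measure only the spread between these libraries, which may in part be technical. How the receptor gene was inactivated is not given in the sources used here, and the deletion is not limited to microglia by any label.

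As background, glycolysis splits glucose into pyruvate and yields energy without oxygen, and lactate dehydrogenase then turns pyruvate into lactate, which leaves the cell through monocarboxylate transporters. Many of these enzymes are targets of hypoxia-inducible factor (HIF), whose alpha subunit is marked for destruction by oxygen-dependent prolyl hydroxylases and accumulates when oxygen is low. Macrophages and microglia are known to raise glycolysis after exposure to LPS, and HIF takes part in that switch as well.

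P2ry12, the targeted gene, followed the genotype labels in both sets of groups compared. Its level ranged from 3007 to 5928 CPM (counts relative to the library total, scaled by the trimmed mean of M values) in the WT animals of the sex experiment and from 309 to 526 CPM in the KO animals. In the LPS experiment it was 3516 to 5406 CPM in WT ns and 585 to 1243 CPM in KO ns, and with LPS it was 400 to 1063 CPM in WT and 84.2 to 154 CPM in KO, so that WT LPS and KO ns overlapped. Of 9 microglial marker genes (Tmem119, Cx3cr1 and others) none was at 0 in any group. In each experiment some libraries stood apart. Male WT 5 and female WT 2 had summed neutrophil markers of 49294 and 29066 CPM, and WT ns 3 and WT ns 8 had 18002 and 16678 CPM. In addition, 6 LPS-experiment libraries, all of the second of 2 library sets given by the library names, had 2.38% to 7.69% of their counts in the protein-coding genes of the mitochondrial genome, against 0.749% to 1.70% in the other 26. Total counts were 58539820 to 318509775 per animal in the sex experiment and 15912288 to 168443379 per sample in the LPS experiment.

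Many oxygen-response elements bound by HIF hold the core ACGTG, which reads as CACGT on the other strand. This form of the core was searched on both strands in the 250 bases before each annotated start in the RefSeq promoters of build GRCm38.p6. A palindromic CACGTG matches on both strands and counts as 2 overlapping matches. Other forms of the core were not searched, so 0 matches does not mean that a window has no such element. A window was listed for 30 of the 32 genes, and 18 of these (60%) held the core in at least 1 window, against 18.5% of the 27025 symbols in the table. Counted by window, it was 48.8% of 43 windows against 16.6% of 32851. The 27025 symbols were not limited to genes expressed in these cells, as the 32 were. Of the genes that rose with LPS in at least 1 genotype, 6 of 11 held the core (54.5%). The core was in 5 of the 6 genes with a window that fell (83.3%) and in 7 of the 13 that passed the test in neither genotype (53.8%). A match of these letters describes the sequence and is not evidence that the factor binds there. The windows below belong to 3 genes that rose with LPS and 2 that fell, and they show the range from 0 to 5 matches; capitals mark the core, each sequence is written 5′ to 3′ on the strand of the gene. They lie at chr6:125165774-125166023 (minus strand), chr7:46845554-46845803 (plus), chr4:119108495-119108744 (plus), chr7:138909507-138909756 (minus) and chr8:45999851-46000100 (minus) in GRCm38.p6.
Gapdh: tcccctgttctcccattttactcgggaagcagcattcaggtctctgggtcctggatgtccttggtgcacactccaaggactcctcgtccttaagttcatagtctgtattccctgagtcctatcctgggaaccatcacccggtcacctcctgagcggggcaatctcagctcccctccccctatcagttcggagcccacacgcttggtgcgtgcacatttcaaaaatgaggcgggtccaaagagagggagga
Ldha: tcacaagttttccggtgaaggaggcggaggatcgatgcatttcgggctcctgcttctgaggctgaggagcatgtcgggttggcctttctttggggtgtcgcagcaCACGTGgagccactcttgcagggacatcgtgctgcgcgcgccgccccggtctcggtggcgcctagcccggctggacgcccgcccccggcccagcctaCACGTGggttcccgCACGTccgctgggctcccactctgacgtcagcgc
Slc2a1: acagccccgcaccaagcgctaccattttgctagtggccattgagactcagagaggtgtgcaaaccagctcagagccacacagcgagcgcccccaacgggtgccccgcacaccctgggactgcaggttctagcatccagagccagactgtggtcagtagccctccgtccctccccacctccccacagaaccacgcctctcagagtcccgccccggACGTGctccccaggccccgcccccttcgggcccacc
Bnip3: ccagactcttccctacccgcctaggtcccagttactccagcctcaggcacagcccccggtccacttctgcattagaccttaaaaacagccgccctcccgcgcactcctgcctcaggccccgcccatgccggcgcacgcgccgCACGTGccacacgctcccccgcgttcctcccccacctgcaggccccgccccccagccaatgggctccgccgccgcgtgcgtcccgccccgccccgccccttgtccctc
Ankrd37: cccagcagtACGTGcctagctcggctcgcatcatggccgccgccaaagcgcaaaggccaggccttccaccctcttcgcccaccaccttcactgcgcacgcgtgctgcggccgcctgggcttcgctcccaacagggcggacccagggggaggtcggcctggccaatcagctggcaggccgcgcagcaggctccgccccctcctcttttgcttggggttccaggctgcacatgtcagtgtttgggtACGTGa

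Within glycolysis, several steps are served by more than 1 gene, and the transcripts of these genes stood at unequal levels in the CD11b-positive cells. Levels between genes are compared here per kilobase of merged exons (GENCODE vM21 lengths, since the authors' annotation is not given in the sources used here) in the 6 WT ns libraries. Among the hexokinases, which trap glucose in the cell, the median level was 60.2 CPM per kilobase for Hk3 and 51.5 for Hk2, against 7.02 for Hk1. Among the phosphofructokinases, which catalyse the committed step, it was 14.0 for Pfkl, 3.32 for Pfkm and 0.951 for Pfkp. Aldoa stood at 99.4 CPM per kilobase and Aldoc, the aldolase of brain astrocytes, at 0.369. Eno1 stood at 40.3 and Eno2, the neuronal enolase, at 0.226. For each of these 4 steps the lowest WT ns library of Hk3, Hk2, Pfkl, Aldoa or Eno1 lay above the highest WT ns library of the lesser members of its own step. The 6 libraries include WT ns 3 and WT ns 8, with high neutrophil markers. Hk3 stood at 296 and 313 CPM in these, against 185 to 233 CPM in the other 4. Which cells the transcripts came from was not tested. Gapdh, Eno1, Pgam1, Ldha, Tpi1, Aldoa and Pkm have near-identical copies elsewhere in the genome, so their counts depend on how reads with several matches were treated.

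The LPS experiment asked how microglia of each genotype respond to endotoxin. In KO, 9 of the 32 genes rose with LPS and 4 fell, and in WT 8 rose and 5 fell (edgeR quasi-likelihood test, Benjamini-Hochberg adjusted p under 0.05 over all genes tested). Over all 16088 genes tested, 14.4% rose and 14.1% fell in KO, and 15.5% rose and 15.2% fell in WT. The falls among the 32 were thus near the shares over all genes in both genotypes. The median log2 fold change of the 32 genes was 0.21 in KO and 0.31 in WT, beside 0.01 and 0.03 over all genes. Of the genes that rose, the glucose transporter Slc2a1 and the enzyme genes Gapdh, Eno1, Eno2, Pkm and Ldha passed in both genotypes. These enzymes serve the lower part of the path, from glyceraldehyde phosphate to lactate. The enzymes Gpi1 and Pgam1 and the regulator Pfkfb4 passed in KO only, and the regulator Pfkfb3 and Ddit4 in WT only. Those that fell were Pdk1 and Ndrg1 in both genotypes, Bnip3 and Ankrd37 in KO, and Hk3, Pfkm and Egln3 in WT. Along with these shifts the summed level of the 9 microglial markers was lower with LPS (median 20344 CPM in WT LPS and 23487 in KO LPS) than without (29579 in WT ns and 33138 in KO ns); in bulk RNA, fewer cells of a type and less RNA per cell cannot be told apart. Markers of other cell types moved as well. The summed neutrophil markers had a median of 929 CPM in KO ns (298 to 10166) and 2170 CPM in KO LPS (1017 to 4456), and of 2613 CPM in WT ns (334 to 18002) and 2576 CPM in WT LPS (1714 to 13508). The monocyte markers went from a median of 132 to 320 CPM in KO and from 319 to 368 CPM in WT. The markers of border-associated macrophages and of endothelial cells were lower with LPS in both genotypes, with medians of 329 and 153 CPM in KO and 384 and 127 CPM in WT for the former, and of 83.5 and 29.5 CPM in KO and 58.8 and 18.5 CPM in WT for the latter. No marker of these 4 lists was at 0 in any group, and their part in the changes with LPS was not tested.

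**Figure D1:**
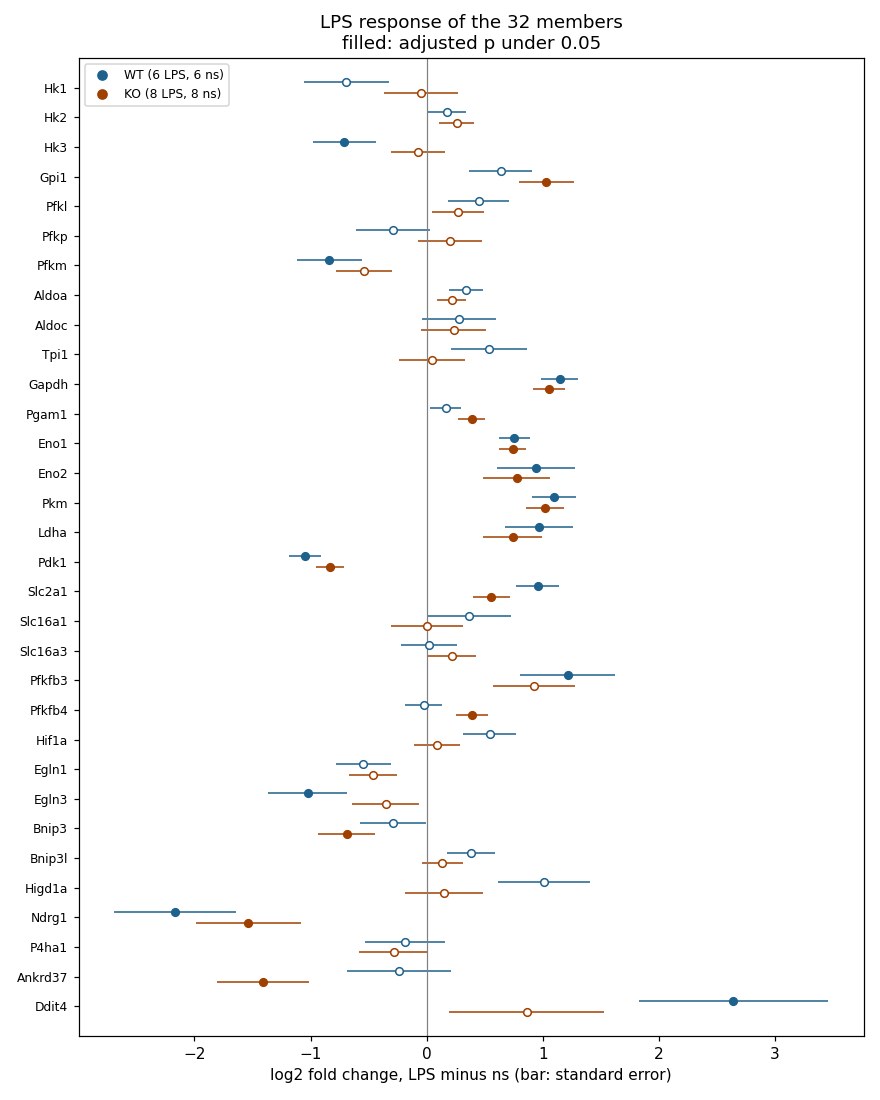
Log2 fold change (LPS minus ns, x axis) of each of the 32 genes (y axis) in WT (blue, 6 and 6 libraries) and KO (brown, 8 and 8); bars are standard errors and filled points have an adjusted p under 0.05. Gapdh, Eno1, Eno2, Pkm, Ldha and Slc2a1 lie to the right of 0 and Pdk1 and Ndrg1 to the left in both genotypes, all filled.

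Among the enzymes, Gapdh, which oxidises glyceraldehyde phosphate (chr6:125138812-125143450, minus strand, GRCm39), had the lowest adjusted p of the genes that rose in each genotype. Its level in WT ns was 296, 367 and 454 CPM (lowest, median and highest of 6 libraries) and in WT LPS 643, 761 and 1055 CPM. In KO ns it was 320, 369 and 485 CPM (8 libraries) and in KO LPS 640, 770 and 823 CPM. Every LPS library of either genotype in the fit lay above every ns library. The log2 fold change was 1.15 ± 0.16 (SE) in WT (edgeR adjusted p = 3.82e-06) and 1.05 ± 0.14 in KO (adjusted p = 1.36e-06).

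Pkm, whose product makes pyruvate in the last step of glycolysis (chr9:59563859-59586655, plus strand, GRCm39), rose by a like amount. It went from 408 ± 107 CPM (mean ± SD, n = 6) in WT ns to 845 ± 120 in WT LPS (n = 6). In KO it went from 357 ± 80.3 (n = 8) to 712 ± 106 (n = 8). The ranges did not overlap in either genotype, with 527 CPM as the highest WT ns library against 726 as the lowest WT LPS library, and 508 against 519 CPM in KO. The log2 fold change was 1.10 ± 0.19 in WT (edgeR adjusted p = 7.01e-05) and 1.02 ± 0.16 in KO (edgeR adjusted p = 2.27e-05).

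Eno1, the main enolase here (chr4:150321165-150333336, plus strand, GRCm39), was the third gene whose ranges did not overlap in either genotype. Its lowest, median and highest levels were 179, 216 and 258 CPM in WT ns and 306, 360 and 420 CPM in WT LPS. They were 176, 204 and 224 CPM in KO ns and 251, 339 and 357 CPM in KO LPS. The log2 fold changes were 0.75 ± 0.13 and 0.74 ± 0.12 in WT and KO (edgeR adjusted p = 9.72e-05 and 1.64e-05). Eno2 also rose in both (0.94 ± 0.34 and 0.77 ± 0.29; edgeR adjusted p = 0.0347 and 0.0443), at a level of at most 3.87 CPM in any of the 28 libraries, and it lost its call in 5 of 13 other settings in WT and 6 of 13 in KO.

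Ldha, the lactate dehydrogenase subunit that favours lactate formation, rose with a wide spread. Its lowest, median and highest levels were 110, 131 and 158 CPM in WT ns and 176, 214 and 563 CPM in WT LPS; in KO they were 114, 134 and 315 CPM in ns and 186, 213 and 495 CPM in LPS. The highest library of 3 of these groups (WT LPS 7, KO ns 6 and KO LPS 5) was one of those with a high mitochondrial share. The log2 fold change was 0.97 ± 0.30 in WT (edgeR adjusted p = 0.0145) and 0.74 ± 0.26 in KO (edgeR adjusted p = 0.0297), and without the high-mitochondrial libraries it was 0.60 ± 0.11 and 0.77 ± 0.10.

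Gpi1, which interconverts glucose phosphate and fructose phosphate, rose in KO from 99.0, 210 and 285 CPM to 140, 453 and 521 CPM (log2 fold change 1.03 ± 0.24, edgeR adjusted p = 0.00142). In WT it went from 201, 258 and 466 CPM to 204, 519 and 586 CPM, and the change did not pass the test there (0.64 ± 0.27, edgeR adjusted p = 0.0750). The 2 highest WT ns libraries for Gpi1 were WT ns 3 and WT ns 8, those with high neutrophil markers; without them Gpi1 was called in WT as well. Pgam1, a phosphoglycerate mutase, rose in KO by a smaller amount (0.39 ± 0.12, edgeR adjusted p = 0.0127) and had a log2 fold change of 0.16 ± 0.13 in WT (adjusted p = 0.381). In WT the muscle-type phosphofructokinase Pfkm fell (-0.84 ± 0.28, adjusted p = 0.0224), from 11.1 to 7.30 CPM in the median, and Hk3 fell (-0.71 ± 0.27, adjusted p = 0.0471), from 222 to 150 CPM, a call that Hk3 lost in 5 of 13 other settings. In KO neither passed the test (Pfkm -0.54 ± 0.24, Hk3 -0.07 ± 0.23). Hk1, Hk2, Pfkl, Pfkp, Aldoa, Aldoc and Tpi1 passed in neither genotype, and their log2 fold changes lay between -0.69 for Hk1 and 0.54 for Tpi1, both in WT.

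**Figure D2:**
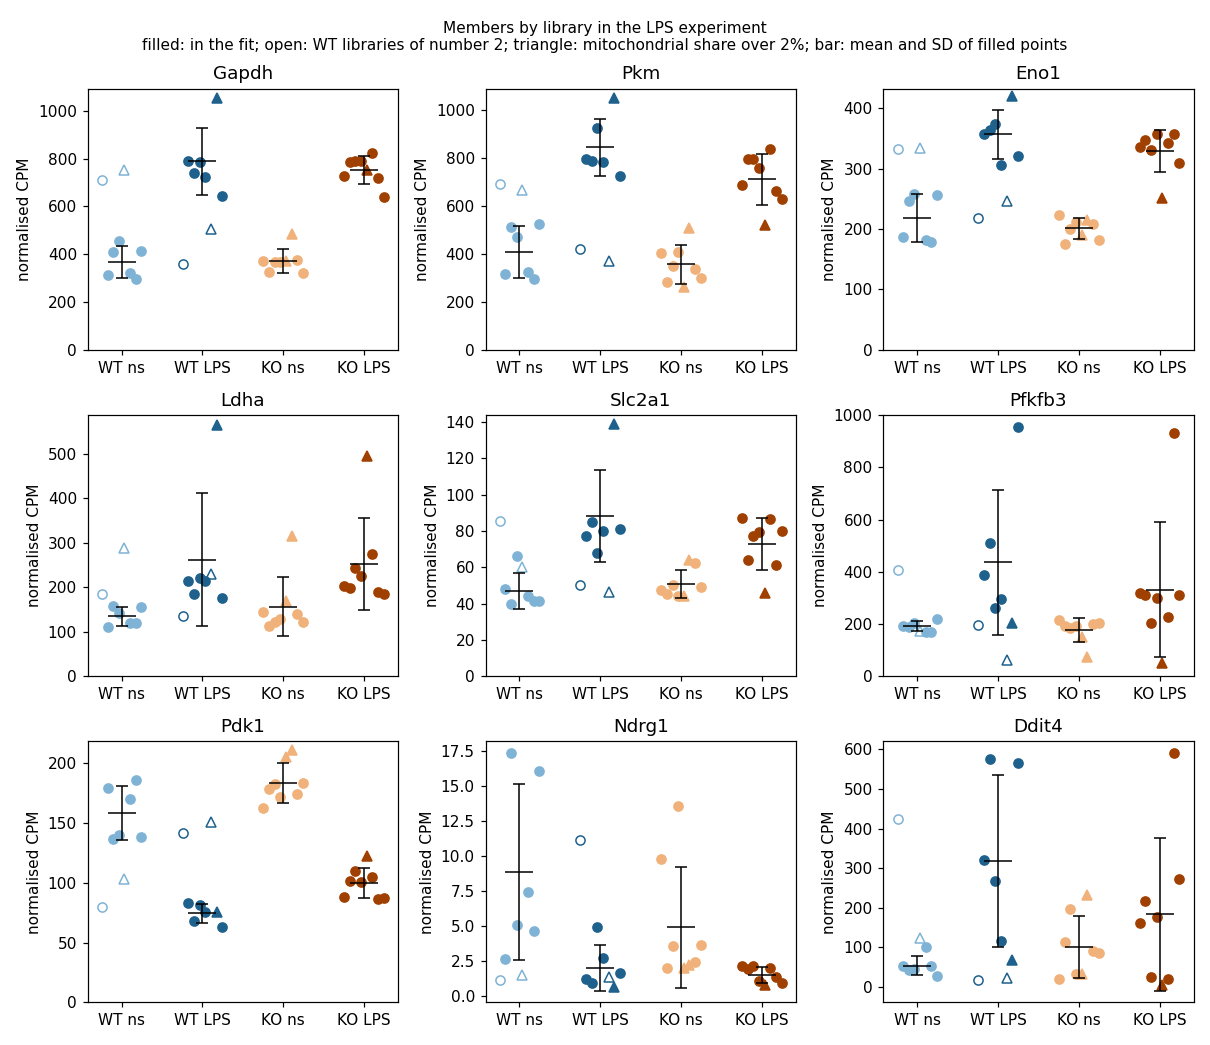
Normalised CPM (y axis) of 9 of the genes in each library of the LPS experiment, by group (x axis); filled points entered the fit, open points are WT libraries of number 2, triangles have over 2% mitochondrial counts, and bars give the mean and SD of the filled points. For Gapdh, Pkm and Pdk1 the open WT ns points sit with the filled WT LPS points or between the groups, and the open WT LPS points sit nearer the filled WT ns points.

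Slc2a1, the main facilitative glucose transporter, rose in both genotypes. It went from 39.6, 42.6 and 66.0 CPM in WT ns to 67.7, 80.7 and 139 CPM in WT LPS, with no overlap, and from 44.1, 48.2 and 63.8 CPM in KO ns to 45.7, 78.5 and 87.4 CPM in KO LPS, with overlap. The log2 fold change was 0.96 ± 0.18 in WT (edgeR adjusted p = 0.000273) and 0.56 ± 0.16 in KO (edgeR adjusted p = 0.00904). The monocarboxylate transporters Slc16a1 and Slc16a3, which carry lactate, did not pass in either genotype, with log2 fold changes of 0.00 to 0.37. Pfkfb3 and Pfkfb4 make the small molecule that activates phosphofructokinase. Pfkfb3 rose in WT (1.22 ± 0.41, edgeR adjusted p = 0.0251), from a median of 191 to 341 CPM, and reached 956 CPM in its highest LPS library. In KO the median went from 192 to 304 CPM and the change missed the threshold (0.92 ± 0.35, adjusted p = 0.0509). Pfkfb4 rose in KO (0.39 ± 0.14, adjusted p = 0.0308), a call that it lost in 6 of 13 other settings, and had a log2 fold change of -0.03 ± 0.16 in WT (adjusted p = 0.917).

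Pdk1 encodes a kinase that turns off pyruvate dehydrogenase and so keeps pyruvate out of the mitochondrion; it is a well known HIF target (chr2:71703398-71734202, plus strand, GRCm39). Unlike the enzyme genes that rose, Pdk1 fell with LPS in both genotypes, as Hk3 and Pfkm did in WT. Its level was 137, 155 and 186 CPM in WT ns and 62.8, 75.5 and 83.3 CPM in WT LPS, and 162, 180 and 211 CPM in KO ns against 86.2, 101 and 122 CPM in KO LPS. No LPS library of either genotype reached the lowest ns library of its genotype. The log2 fold change was -1.05 ± 0.14 in WT (edgeR adjusted p = 1.94e-06) and -0.83 ± 0.12 in KO (edgeR adjusted p = 5.42e-06).

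Of the 10 hypoxia-response genes, 3 fell and 0 rose in KO, where 14.1% of all genes fell and 14.4% rose. In WT 2 fell and 1 rose, near the shares of 15.2% and 15.5% over all genes. Ndrg1, a stress-induced gene whose transcript rises in low oxygen (chr15:66801167-66841490, minus strand, GRCm39), fell in both genotypes, by 2.16 ± 0.53 on the log2 scale in WT (edgeR adjusted p = 0.00252) and by 1.54 ± 0.45 in KO (edgeR adjusted p = 0.0111). Its levels were low and spread widely without LPS, at 2.68, 6.27 and 17.4 CPM in WT ns and 2.04, 3.00 and 13.6 CPM in KO ns; with LPS they were 0.633, 1.43 and 4.97 CPM in WT and 0.768, 1.65 and 2.15 CPM in KO. The ns libraries with the most Ndrg1 (WT ns 3, WT ns 8, KO ns 4 and KO ns 1) had neutrophil marker sums of 18002, 16678, 7552 and 6459 CPM, while all other ns libraries in the fit were at or below 3628 CPM except KO ns 6, at 10166. In KO ns 6, however, Ndrg1 stood at only 2.20 CPM. Without WT ns 3 and WT ns 8 the fall in WT was -1.40 ± 0.53 and was not called (edgeR adjusted p = 0.0531). The part of neutrophil RNA in the remaining difference was not tested.

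Ankrd37, a small ankyrin-repeat gene induced by HIF, fell in KO (-1.41 ± 0.40, edgeR adjusted p = 0.00772), from 1.74, 3.15 and 14.6 CPM to 0.599, 1.28 and 3.20 CPM. In WT it went from a median of 2.31 to 1.59 CPM (-0.24 ± 0.45, adjusted p = 0.725). Bnip3, a mitophagy receptor, fell in KO (-0.69 ± 0.25, edgeR adjusted p = 0.0360), from a median of 25.2 to 15.1 CPM, and had a log2 fold change of -0.29 ± 0.28 in WT (median 19.3 to 12.7 CPM). For both genes the highest library of KO ns, KO LPS and WT LPS was one with a high mitochondrial share (KO ns 6, KO LPS 5 and WT LPS 7). Egln3, a HIF prolyl hydroxylase that HIF itself induces, fell in WT (-1.03 ± 0.34, adjusted p = 0.0235), from a median of 1.72 to 0.791 CPM, and lost its call in 5 of 13 other settings. Its change in KO was -0.35 ± 0.29 (adjusted p = 0.405).

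Ddit4, an inhibitor of mTOR signalling that also responds to glucocorticoids, was the 1 hypoxia-response gene that rose. In WT it went from 27.9, 48.6 and 99.6 CPM to 66.8, 293 and 575 CPM (log2 fold change 2.64 ± 0.81, edgeR adjusted p = 0.0148). In KO the ns libraries ranged from 19.5 to 231 CPM and the LPS libraries from 3.20 to 591 CPM, with a change of 0.86 ± 0.66 (adjusted p = 0.376). Among the 8 KO LPS libraries, 3 stood at 3.20 to 24 CPM and the other 5 at 161 to 591 CPM. Hif1a itself, the other hydroxylase Egln1, the mitophagy receptor Bnip3l, the mitochondrial protein Higd1a and the collagen prolyl hydroxylase subunit P4ha1 passed in neither genotype. Of these, Higd1a came nearest in WT (1.01 ± 0.40, edgeR adjusted p = 0.0541), where every LPS library lay above every ns library. For Egln1 every WT LPS library in the fit (27.2 to 34.6 CPM) lay below every WT ns library (39.2 to 59.4 CPM). Such patterns were shown by 10.8% of all genes above and 14.1% below.

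Between the genotypes, 8 of the genes were called in both responses, all in the same direction: Gapdh, Eno1, Eno2, Pkm, Ldha and Slc2a1 up, Pdk1 and Ndrg1 down. They made up 61.5% of the 13 called in KO and 61.5% of the 13 called in WT; for all genes the overlap was 71.4% of the KO calls and 66.3% of the WT calls. Counting non-overlapping ranges, LPS libraries lay wholly above ns libraries for 3 of the genes in KO and 6 in WT, and wholly below for 1 and 3. Over all genes tested the shares were 3.62% above and 4.01% below in KO, and 10.8% above and 14.1% below in WT.

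The 4 WT libraries that carry number 2 in their library names (the libraries labelled WT ns 1, WT ns 5, WT LPS 1 and WT LPS 6) were kept out of the fit and are given apart. On P2ry12 and on Saa3, an acute-phase gene strongly raised by LPS, they went against their treatment label. P2ry12 stood at 481 CPM in WT ns 1, 927 CPM in WT ns 5, 4461 CPM in WT LPS 1 and 12154 CPM in WT LPS 6. The value in WT LPS 6 lay above all WT libraries in the fit. The summed erythroid markers of WT LPS 6, at 22301 CPM, were the highest of the LPS experiment. Saa3 stood at 1781 CPM in the library labelled WT ns 1 and at 2491 CPM in WT ns 5, whereas the ns libraries in the fit had at most 64.3 CPM. It stood at 1.59 CPM in the library labelled WT LPS 1 and at 3.21 CPM in WT LPS 6, whereas the LPS libraries in the fit had at least 1024 CPM. Over the 13 genes called in WT, the level was nearer the median of the other label for 12 genes in the library labelled WT ns 1, 11 in WT ns 5, 13 in WT LPS 1 and 8 in WT LPS 6. For Gapdh the library labelled WT ns 1 had 709 CPM and that labelled WT ns 5 had 754 CPM, and those labelled WT LPS 1 and WT LPS 6 had 357 and 507 CPM. Pdk1 stood at 79.7 and 103 CPM in the former and at 142 and 151 CPM in the latter. With all libraries kept in the groups of their labels, 10 of the genes were called in KO, where 22.3% of all genes were called, and 0 in WT, where 0% of all genes were called. In that fit 10 of the 32 genes had an unadjusted p under 0.05 in WT, beside 22.7% of all genes (edgeR). The lowest edgeR adjusted p of the 32 was 0.103, for Pdk1.

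Within the library sets the directions of the main calls were the same, and the calls were not. In library set 1 alone, 18 of the genes were called in KO and 17 in WT, where 45.3% and 42.6% of all genes were called. In library set 2 alone, which held all high-mitochondrial libraries of the fit (WT LPS 7, KO ns 5, KO ns 6 and KO LPS 5), 0 were called in KO and 2 in WT, Pdk1 and Ndrg1, where 4.36% and 3.31% of all genes were called. The members' counts thus moved with those over all genes. Gapdh had a log2 fold change of 1.16 ± 0.11 in set 1 and 0.95 ± 0.29 in set 2 in KO, and 1.00 ± 0.12 and 1.26 ± 0.33 in WT. Pkm had 1.12 ± 0.15 and 0.93 ± 0.32 in KO, and 0.98 ± 0.18 and 1.18 ± 0.37 in WT. Without the high-mitochondrial libraries, 19 of the genes were called in KO and 22 in WT, where 54.7% and 54.1% of all genes were called. In this setting, chosen after the values were seen, Bnip3 fell in both genotypes (-0.63 ± 0.10 in KO and -0.64 ± 0.11 in WT), as did Ankrd37 (-1.11 ± 0.23 and -0.63 ± 0.26), and Higd1a rose in both (0.31 ± 0.08 and 0.45 ± 0.09).

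Whether the loss of the receptor changed these genes was asked without and with LPS and in each sex, and in none of these comparisons did a gene of the list pass the test. In KO against WT without LPS, 0 of the 32 genes were called, where 0.0932% of all genes were called. An unadjusted p under 0.05 was found for 7 of the 32, beside 9.2% of all genes (edgeR). The 5 lowest were Slc16a3 (log2 fold change -0.63 ± 0.22), Pfkp (-0.72 ± 0.29), Gpi1 (-0.57 ± 0.25), Hif1a (0.48 ± 0.22) and Pfkfb4 (-0.32 ± 0.15), with edgeR adjusted p from 0.442 to 0.542. The levels of Slc16a3 overlapped, at 57.5, 76.0 and 92.0 CPM in WT ns and 22, 47.6 and 62.3 CPM in KO ns. Gpi1 stood at 201, 258 and 466 CPM in WT ns and 99.0, 210 and 285 CPM in KO ns. Without WT ns 3 and WT ns 8, 0 of the genes had an unadjusted p under 0.05 in this comparison (edgeR), and Ndrg1, at -1.0 ± 0.47 with them, was at -0.22 without them.

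With LPS, 0 of the genes were called between KO and WT, where 0.0746% of all genes were called. An unadjusted p under 0.05 was found for 1 of them, beside 6.33% of all genes (edgeR). That gene was Pdk1, at 75.5 CPM in the median of WT LPS and 101 CPM in that of KO LPS. The lowest KO LPS library, at 86.2 CPM, lay above the highest WT LPS library, at 83.3 CPM, a pattern that 0.124% of all genes showed in that direction. The log2 fold change was 0.44 ± 0.13 (edgeR adjusted p = 0.395). The 4 next lowest p-values belonged to Slc16a3 (-0.43 ± 0.22), Egln3 (0.57 ± 0.32), Slc2a1 (-0.28 ± 0.17) and Aldoa (-0.21 ± 0.14), none below an unadjusted p of 0.0627.

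**Figure D3:**
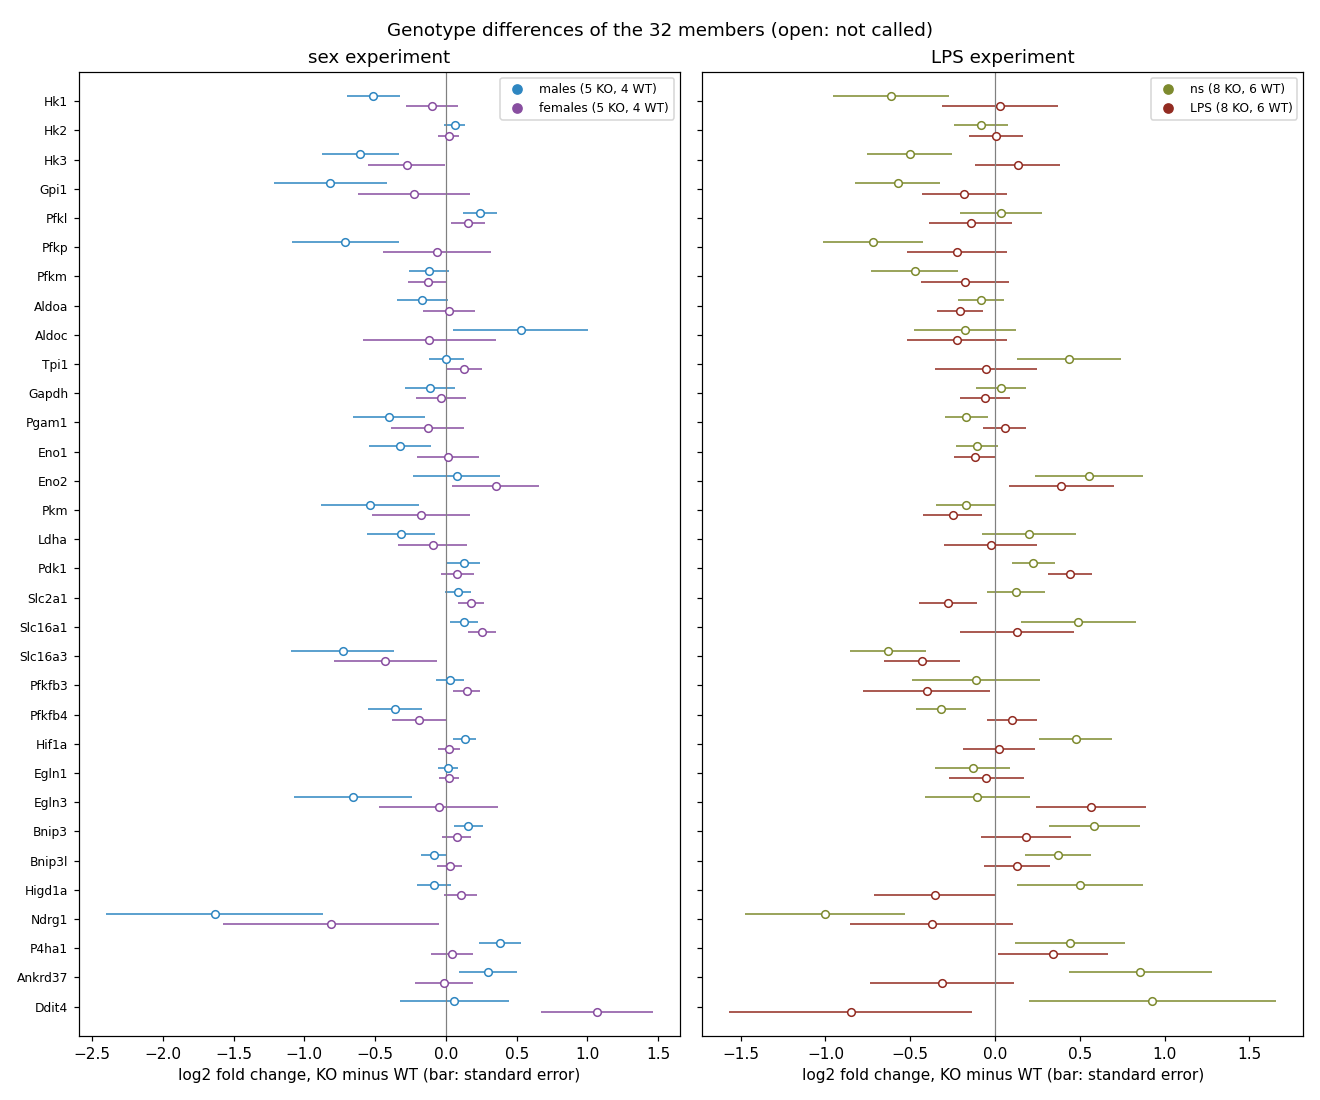
Log2 fold change (KO minus WT, x axis) of each of the 32 genes (y axis), in males and females of the sex experiment (left) and in ns and LPS libraries of the LPS experiment (right); bars are standard errors and open points were not called. All points are open, and Ndrg1 lies furthest to the left in males, at -1.63.

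The interaction of genotype and LPS, which tests whether the response differed between KO and WT, was called for 0 of the genes and for 0% of all genes, and 0 of the genes had an unadjusted p under 0.05 (edgeR; 1 by DESeq2, also with 0 called). The 5 lowest p-values were those of Pfkfb4 (difference of log2 fold changes, KO minus WT, 0.42 ± 0.21), Ankrd37 (-1.17 ± 0.60), Hk3 (0.64 ± 0.36), Ddit4 (-1.78 ± 1.02) and Slc2a1 (-0.40 ± 0.24), all with an edgeR adjusted p of 0.772. Calls made in one genotype and not in the other, such as Gpi1, Pfkm or Ddit4, were therefore not shown to differ between genotypes.

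In the sex experiment, which compared KO with WT in animals of each sex without a treatment label, no gene of the list was called. Among males, 0 were called, where 0.00946% of all genes were called. An unadjusted p under 0.05 was found for 3 of the 32 genes, beside 6.85% of all genes (edgeR). They were Hk1 (-0.51 ± 0.18), P4ha1 (0.38 ± 0.15) and Hk3 (-0.61 ± 0.27), each with an edgeR adjusted p of 0.719. Ndrg1 (-1.63 ± 0.77) and Gpi1 (-0.82 ± 0.40) had the next lowest p-values. Hk1 stood at 47.8, 53.0, 54.4 and 101 CPM in male WT and at 43.4, 46.5, 45.0, 48.3 and 41.9 CPM in male KO. The single value of 101 CPM was male WT 5. P4ha1 stood at 347, 375, 297 and 195 CPM in male WT and 429, 408, 408, 406 and 324 CPM in male KO, and here male WT 5 was the lowest. Hk3 stood at 129, 142, 155 and 369 CPM against 134, 130, 126, 135 and 128 CPM, again with male WT 5 as the highest and otherwise overlapping groups.

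Among females, 0 were called, where 0.164% of all genes were called. An unadjusted p under 0.05 was found for 2 of the 32, near the share of 5.22% over all genes (edgeR). Ddit4 stood at 11.5, 9.33, 7.43 and 16.8 CPM in female WT and at 29.9, 35.1, 15.3, 10.4 and 27.2 CPM in female KO (log2 fold change 1.07 ± 0.40, edgeR adjusted p = 0.690). In 3 of the 5 female KO animals it was above every female WT animal. Slc16a1 stood at 23.2, 15.7, 19.5 and 18.2 CPM against 22.4, 22.8, 24.8, 23.7 and 20.6 CPM (0.25 ± 0.10, edgeR adjusted p = 0.727), with overlap. Slc2a1 (0.18 ± 0.09), Pfkfb3 (0.15 ± 0.10) and Pfkl (0.16 ± 0.12) had the next lowest p-values, from 0.0630 to 0.203.

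Averaged over the sexes, 0 were called, where 0.432% of all genes were called. An unadjusted p under 0.05 was found for 6 of the 32, beside 9.02% of all genes (edgeR). The 5 lowest were Slc16a1 (0.19 ± 0.07), Pfkl (0.20 ± 0.09), Hk1 (-0.31 ± 0.13), Hk3 (-0.44 ± 0.19) and Ndrg1 (-1.22 ± 0.54), with edgeR adjusted p from 0.450 to 0.541. For the interaction of sex and genotype, 0 of the genes were called and 0% of all genes, and 0 had an unadjusted p under 0.05 by edgeR (1 by DESeq2, which also called 0). The lowest p there was that of Ddit4 (1.01 ± 0.55), and those of P4ha1 (-0.34 ± 0.21), Hk1 (0.41 ± 0.26), Pfkp (0.65 ± 0.54) and Higd1a (0.19 ± 0.17) followed. Between female and male WT, 0 were called, where 0.0725% of all genes were called. The lowest p in that comparison was that of Bnip3l (-0.23 ± 0.10, edgeR adjusted p = 0.628), and Aldoc (0.96 ± 0.50), Ankrd37 (0.36 ± 0.22), Slc16a1 (-0.16 ± 0.10) and Hk1 (-0.28 ± 0.20) came next. In each of these comparisons between genotypes or sexes, and in both interactions, DESeq2 called 0 of the genes too. Its counts of the 32 with an unadjusted p under 0.05 were 6 in males, 2 in females and 7 averaged over the sexes. They were 2 between the sexes in WT, 9 without LPS and 1 with LPS. Over all genes the DESeq2 shares were 8.1%, 5.76%, 9.76%, 9.01%, 11.8% and 7.73% in the same order.

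**Figure D4:**
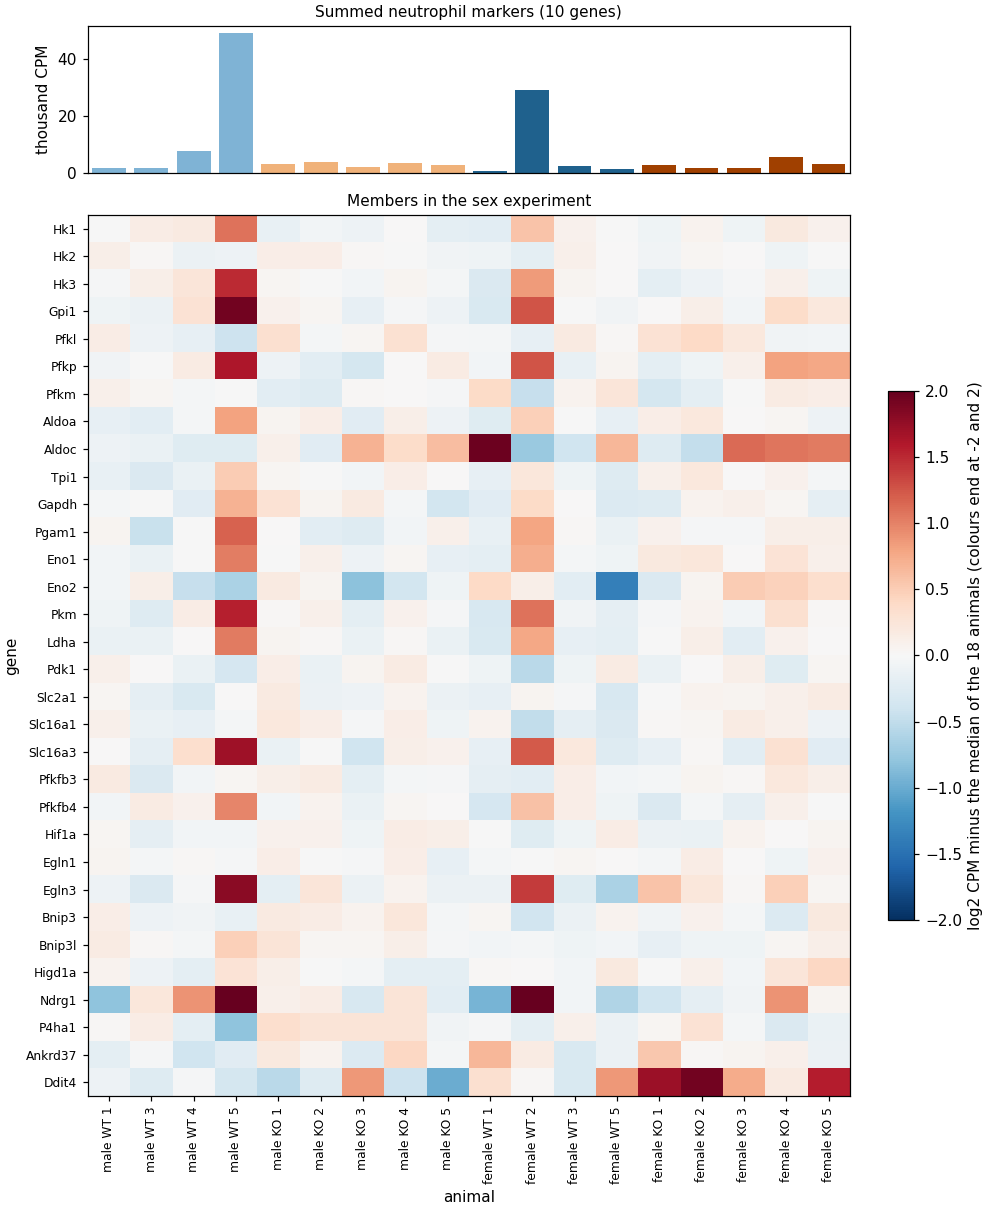
Top, summed CPM of 10 neutrophil markers in each of the 18 animals; below, log2 CPM of each gene (rows) minus its median over the 18 animals (colour, from -2 to 2). Male WT 5 and female WT 2 have the tallest bars and the reddest columns, with Ndrg1, Gpi1, Pkm, Pfkp, Slc16a3 and Egln3 above the other animals.

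In the sex experiment 2 WT animals stood apart from the others. In male WT 5 and female WT 2, 15 of the 32 genes were above all the other 16 animals, a pattern that 10.5% of all genes showed, and 1, Pdk1, was below them all, a pattern that 5.99% of all genes showed. Ndrg1 stood at 44.2 and 27.8 CPM in these 2 animals and at 2.63 to 9.33 CPM in the other 16. Gpi1 stood at 521 and 326 CPM against 110 to 176 CPM. Pkm stood at 684 and 497 CPM against 187 to 293 CPM. Hk3, the hexokinase typical of myeloid blood cells, was at 369 and 235 CPM against 107 to 155 CPM. The lactate exporter Slc16a3 was at 101 and 73.2 CPM against 23.8 to 39.7 CPM, and Egln3 at 8.14 and 6.17 CPM against 1.5 to 3.46 CPM. The same 2 animals had the lowest microglial marker sums, 23922 and 23932 CPM against 30195 to 37176, and the highest neutrophil marker sums, against 732 to 7760 CPM. Their summed monocyte markers were the highest too, at 3501 and 1957 CPM against 84.1 to 508 CPM. All 10 neutrophil and 5 monocyte markers were detected in every group, and the part of RNA from either cell type in these levels was not tested.

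Without these 2 animals, a setting chosen after their values were seen, Ndrg1 had a log2 fold change of -0.26 in males, 0.62 in females and 0.18 averaged over the sexes. Slc16a3 was at -0.13, 0.01 and -0.06, and Hk1 in males was at -0.20. One gene was then called in the average, the triose phosphate isomerase gene Tpi1, higher in KO (0.23 ± 0.05, edgeR adjusted p = 0.0234), where 0.969% of all genes were called. Its level was 51.3 to 59.0 CPM in the 6 other WT animals and 60.0 to 72.2 CPM in the 10 KO animals, so that the 2 groups did not overlap, a pattern that 0.394% of all genes showed in that direction. In females 9 of the genes then had an unadjusted p under 0.05, 8 of them higher in KO, with Eno1 first (0.28 ± 0.08, edgeR adjusted p = 0.184). In males 2 did, Tpi1 and Hk1. The share of all genes under that p was not computed in this setting. Between the same 6 WT and 10 KO animals the mitochondrial share did not overlap either, at 1.09% to 1.30% and 1.33% to 1.65%. Tpi1 stood at 114 to 284 CPM in the 6 LPS-experiment libraries of high share. In the other 26 it stood at 69.5 to 123 CPM. The part of this share in the Tpi1 difference was not tested.

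**Figure D5:**
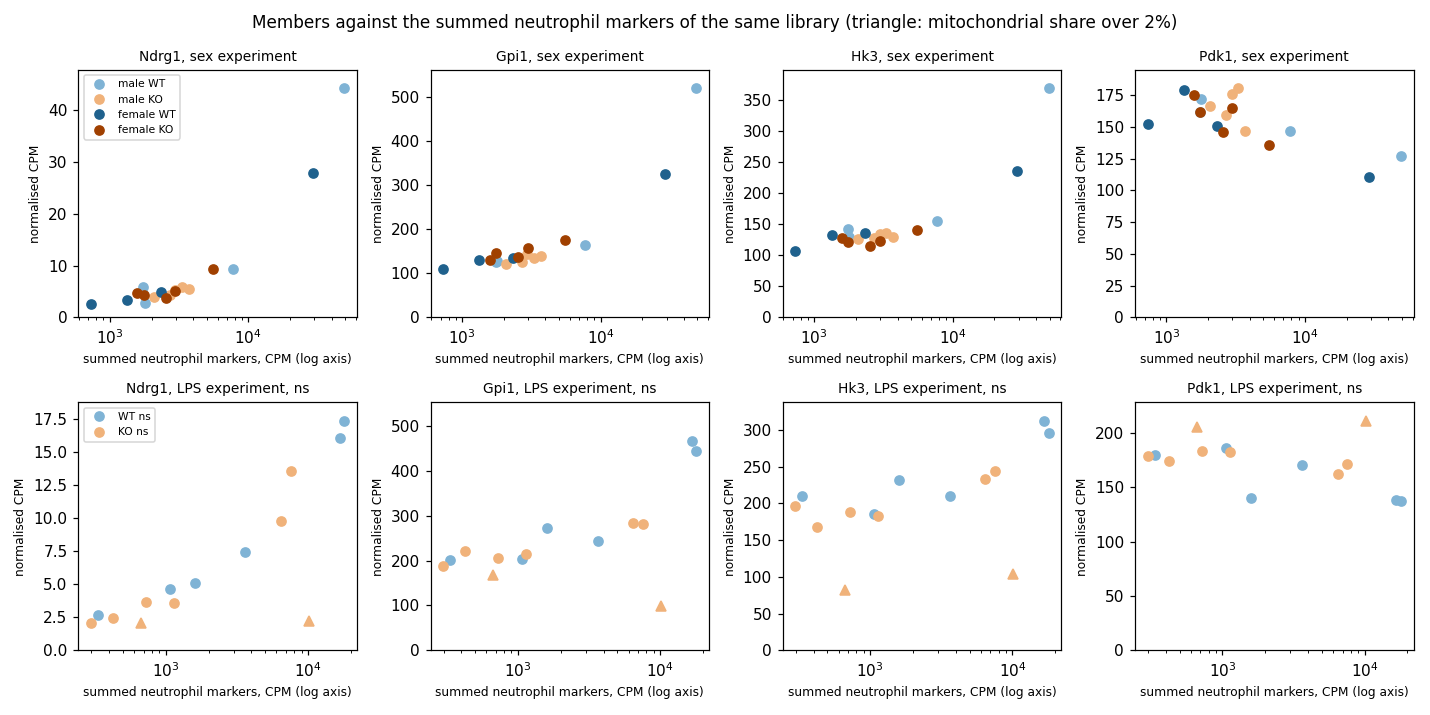
Normalised CPM of Ndrg1, Gpi1, Hk3 and Pdk1 (y axis) against the summed neutrophil markers of the same library (x axis, log scale), for the 18 animals of the sex experiment (top) and the ns libraries of the LPS experiment (bottom); triangles have over 2% mitochondrial counts. Ndrg1 is highest in male WT 5 and female WT 2 (44.2 and 27.8 CPM) in the top row and in WT ns 3 and WT ns 8 (17.4 and 16.1 CPM) in the bottom row.

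A partly like pattern was seen in the LPS experiment. In WT ns 3 and WT ns 8, 10 of the genes were above the other 4 WT ns libraries, a pattern of 14.8% of all genes, and 8 were below them, a pattern of 13.2%. Each of the 10 was also above the other animals in male WT 5 and female WT 2. Of the 8, only Pdk1 was below them there. The others of the 8 were Hk2, Pfkl, Slc2a1, Bnip3, P4ha1, Ankrd37 and Ddit4. Ndrg1 stood at 17.4 and 16.1 CPM in WT ns 3 and WT ns 8 and at most at 7.42 CPM in the other 4. Their monocyte markers summed to 1710 and 1499 CPM, against 87.7 to 418 CPM in the other 4. The pattern did not hold throughout in WT LPS 7 and KO ns 6, whose neutrophil markers summed to 13508 and 10166 CPM. Ndrg1, Gpi1 and Hk3 stood at only 0.633, 204 and 74.3 CPM in WT LPS 7. They stood at 2.20, 98.9 and 105 CPM in KO ns 6. Pkm was the highest of its group in both, at 1051 and 508 CPM. Both libraries had a high mitochondrial share. Without WT ns 3 and WT ns 8 in the fit, 8 of the genes were called for LPS in WT. Of these, 7 were among the 13 called with both libraries kept. Over all genes the share called went from 30.7% to 24.3%. Eno2 (0.91 ± 0.41), Hk3 (-0.54 ± 0.31), Egln3 (-0.56 ± 0.34), Pfkfb3 (1.23 ± 0.51), Ndrg1 and Ddit4 (2.40 ± 0.98) kept their directions and were no longer called, with edgeR adjusted p of 0.107, 0.222, 0.241, 0.0813, 0.0531 and 0.0769, in fits with 4 WT ns libraries.

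Genes of the same pathways outside the list were called with LPS in both directions. Their counts stand beside shares over all genes of 14.4% higher and 14.1% lower in KO, and 15.5% higher and 15.2% lower in WT. Of 29 other glycolysis and pyruvate genes tested, 5 rose and 4 fell in KO, and 8 rose and 4 fell in WT; the counts in KO and the falls in WT were near those shares. Among those with large changes were Slc2a5, a fructose transporter gene marking microglia, and Slc2a6, a lysosomal hexose transporter gene. Slc2a5 fell from a median of 583 to 62.8 CPM in KO (-3.15 ± 0.34) and from 534 to 16.5 CPM in WT (-4.03 ± 0.41). Slc2a6 rose from 5.53 to 64.4 CPM in KO (3.11 ± 0.35) and from 11.2 to 60.3 CPM in WT (2.24 ± 0.39). Of 10 pentose phosphate genes, 3 rose and 1 fell in KO and 3 rose and 0 fell in WT. G6pdx, which opens that path, rose in both (0.90 ± 0.16 and 0.59 ± 0.18), as did Pgd (0.68 ± 0.14 and 0.71 ± 0.16); the third gene was Tkt in KO (0.66 ± 0.23) and Prps1 in WT (1.71 ± 0.45).

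Of 31 other HIF pathway and hypoxia-response genes tested, 8 rose and 4 fell in KO, and 8 rose and 6 fell in WT, with the falls again near the shares over all genes. Hif3a, an alternative HIF alpha subunit, rose from a median of 1.78 to 27.4 CPM in KO (4.14 ± 0.77) and from 1.33 to 73.8 CPM in WT (5.33 ± 0.94), with LPS libraries from 0.811 to 139 CPM. Among the genes named by size, Angptl4 (3.14 ± 0.57, at most 2.26 CPM) rose and Rora (-1.74 ± 0.28) fell in KO, and Lox (3.67 ± 0.40) rose in WT. Between the genotypes, none of these lists had a called gene with or without LPS, in either sex, or in an interaction. Averaged over the sexes, 2 of 40 other HIF pathway genes were higher in KO, where 0.432% of all genes were called. They were the collagen crosslinking enzyme gene Lox (1.58 ± 0.26, edgeR adjusted p = 0.00866) and the cytokine gene Mif (0.45 ± 0.09, edgeR adjusted p = 0.0331). In the LPS experiment, where neither was called between genotypes, Lox stood at 0.878 to 1.63 CPM in WT ns and 2.85 to 5.84 CPM in KO ns. These ranges did not overlap, a pattern that 0.528% of all genes showed in that direction. Mif overlapped, at 16.5 to 35.4 CPM in WT ns and 21.1 to 60.4 CPM in KO ns. With LPS both genes overlapped between the genotypes. Of 22 immediate early genes, which also respond to cell isolation, 5 rose and 6 fell with LPS in KO and 4 rose and 6 fell in WT, led by Ier3 (2.98 ± 0.32 and 3.68 ± 0.38); Egr2 (-2.0 ± 0.41) and Klf4 (1.96 ± 0.49) followed in KO, and Fosb (-3.01 ± 0.66) and Klf4 (2.07 ± 0.56) in WT.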

How the data were processed

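The authors deposited 2 tables of raw counts per gene, 1 per experiment. STAR 2.6.1, featureCounts, Subread, FastQC, DESeq2 and build GRCm39 are named, per the submitters' processing notes, without their roles; the annotation is not given in the sources used here. In the table of the sex experiment, per the file headers, gene lengths span introns, and 79% to 89.2% of low counts are even (39.7% to 45.6% in the other), so the tables were fitted apart and no level is compared across them. Every column was matched to a sample by its name (0 were left without one), and 6 repeat libraries were not analysed here. The 2 WT LPS libraries numbered 8 and 9 were summed to 1 sample because their chi-square was 1.86 times its degrees of freedom, where the next closest pair had 8.32.

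The members and lists were chosen with earlier results of these data known, and the WT libraries of number 2 were set apart for the same reason. Counts were filtered (filterByExpr), scaled (TMM) and tested with edgeR 4.0.16 in R 4.3.3 (quasi-likelihood F test, robust; 31709 and 16088 genes tested; library set as a covariate in the LPS experiment), with Benjamini-Hochberg adjustment over all genes within each comparison and calls at an adjusted p under 0.05. Errors of fold changes are standard errors. The script was tested on simulated data. Named were the called genes, at most 12 with values and the rest by count, or the 5 with the lowest p where none was called, and the 3 largest called changes of each other list. Alternatives were DESeq2 1.42.0, other scaling, no filter, the compared groups alone, a replicate block, no set term, each set alone, all libraries as labelled, and leaving out animals or, chosen after seeing the data, libraries that stood apart. Some genes that the naming rule selects from the lists are not reported here.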

Additional observations from a re-analysis of the deposited data

Results flagged for a closer look

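In groups of 4 to 10 samples, a level was marked where the gap between the highest or lowest sample and its nearest neighbour took up more of the group's range than Dixon's 95% critical value. Of 256 groups (32 genes in 8 groups) 68 were marked, where chance marks about 1 in 20, and 60 of the 68 came from 5 libraries. The genes of 1 library are not independent of one another.

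In the sex experiment, male WT 5, the animal with the highest neutrophil marker sum, was above the other male WT animals for 13 genes: Hk1 (101.5 CPM), Hk3 (368.5 CPM), Gpi1 (521.4 CPM), Pfkp (43.9 CPM), Aldoa (352.9 CPM), Tpi1 (89 CPM), Eno1 (124.7 CPM), Pkm (684.4 CPM), Ldha (221.2 CPM), Slc16a3 (100.8 CPM), Pfkfb4 (167.7 CPM), Egln3 (8.138 CPM) and Ndrg1 (44.22 CPM). Female WT 2, with the second highest sum, was above the other female WT animals for 8: Gpi1 (325.9 CPM), Pfkp (34.08 CPM), Pgam1 (29.49 CPM), Eno1 (101.4 CPM), Pkm (496.8 CPM), Ldha (184.1 CPM), Egln3 (6.172 CPM) and Ndrg1 (27.8 CPM). All of the 8 except Pgam1 were among the 13. Female KO 4 was above its group for Ndrg1 (9.332 CPM), male KO 3 for Ddit4 (16.79 CPM), and male KO 5 was below its group for P4ha1 (323.8 CPM).

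In the LPS experiment, 3 libraries with a mitochondrial share over 2% held most of the marks. KO LPS 5 was above its group for Tpi1 (201.4 CPM), Ldha (495.4 CPM), Slc16a1 (53.43 CPM), Hif1a (289.6 CPM), Bnip3 (35.46 CPM), Higd1a (36.19 CPM), P4ha1 (886.7 CPM) and Ankrd37 (3.2 CPM), and below it for Hk1 (3.712 CPM), Gpi1 (139.8 CPM), Pfkl (27.1 CPM), Pfkm (1.92 CPM), Aldoa (229.8 CPM), Eno1 (250.9 CPM), Slc16a3 (17.62 CPM), Pfkfb4 (57.57 CPM) and Egln1 (10.24 CPM). KO ns 6 was above its group for Aldoc (2.2 CPM), Tpi1 (281.7 CPM), Gapdh (484.6 CPM), Ldha (314.9 CPM), Slc16a1 (54.18 CPM), Hif1a (279.9 CPM), Bnip3 (62.3 CPM), Higd1a (42.8 CPM) and Ankrd37 (14.64 CPM), and below it for Hk2 (158.3 CPM) and Pfkfb3 (73.38 CPM). WT LPS 7 was above its group for Tpi1 (284.4 CPM), Gapdh (1055 CPM), Ldha (563.5 CPM), Slc2a1 (138.9 CPM), Slc16a1 (55.65 CPM), Hif1a (290.5 CPM), Bnip3 (33.34 CPM) and Higd1a (58.39 CPM), and below it for Hk1 (11.33 CPM), Pfkm (1.618 CPM) and Pfkfb4 (70.7 CPM). Tpi1, Ldha, Slc16a1, Hif1a, Bnip3 and Higd1a were above the group in all 3 of these libraries. What part of this comes from the mitochondrial share, or from what moved with it, was not tested.

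The other marks in that experiment came from 4 libraries. KO LPS 7 was above its group for Pfkfb3 (931.3 CPM) and Ddit4 (591 CPM), WT ns 4 for Slc2a1 (66.02 CPM) and WT ns 6 for Ddit4 (99.64 CPM). KO ns 2 was below its group for Egln3 (0.7897 CPM).

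The 4 WT libraries of number 2 entered the groups compared only in the fit of all libraries as labelled. Most of the 13 genes called with LPS in WT stood nearer the other label in each, least clearly in WT LPS 6. Inside the range of the other label were 12 genes in WT ns 1, 12 in WT LPS 1, 6 in WT ns 5 and 5 in WT LPS 6. Inside the range of their own label were 1, 0, 3 and 5 genes in the same order. Of the 13 genes called with LPS in WT, the level was nearer the median of the other label for 12 in the library labelled WT ns 1, for 13 in WT LPS 1, for 11 in WT ns 5 and for 8 in WT LPS 6. Why these libraries stood nearer the other label was not tested.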

How the results depend on the processing

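No called change turned its direction in any setting. The counts of the 32 genes called between KO and WT, between the sexes and in both interactions were 0 in every setting run, leaving out each animal in turn included (0 to 0), with 1 exception: without male WT 5 and female WT 2 the average over the sexes called 1 gene, Tpi1 (0.969% of all genes, against 0.432% with them). For LPS in KO the count was 13 (28.5% of all genes called), and it was 0 in library set 2 alone (4.36%). For LPS in WT it was 13 (30.7%), and it was 2 in library set 2 alone (3.31%), 0 with all libraries as labelled (0%), 22 without the libraries of high mitochondrial share (54.1%) and 8 without WT ns 3 and WT ns 8 (24.3%), so that the members' counts moved with those over all genes. The fit as labelled takes in the 4 libraries that went against their label on Saa3. The cause of the other changes was not tested; library sets 1 and 2 hold equal numbers of fitted libraries in each group. Other settings gave 10 to 19 in KO and 9 to 18 in WT; DESeq2 gave 15 and 14, size factors by relative log expression 11 and 13, and no filter on low counts 10 and 9. The settings without named libraries were chosen after seeing the data. Fits of the compared groups alone were not made for the average or the interactions, which use all groups. Over all genes, the number called between female KO and WT was 52 and between 3 and 210 under other settings.

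The replicate block, with the number in the sample name as a block, gave 15 called genes in KO and 18 in WT (34.6% and 35.8% of all genes), and 0 in each comparison between genotypes, sexes or interactions. Same-numbered samples did not deviate together throughout: the correlation of deviations was over 0.1 in 7 of 8 same-numbered pairs of the sex experiment (mean 0.263, lowest -0.261, other pairs -0.0601) and in 22 of 35 of the LPS experiment (mean 0.283, lowest -0.333, other pairs 0.0371). Since not every pair was over 0.1, the main fit did not take the numbers as pairs. Same-numbered pairs still had the higher mean in both experiments, and the replicate block gives the counts with the numbers taken into account.

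Depth limits the genes of low counts: in the libraries of the LPS fit the lowest count was 9 for Ndrg1, 11 for Aldoc and Egln3, 12 for Eno2 and 13 for Ankrd37. The count tables cannot tell a gene from its near-identical copies, and 13 of the 32 genes overlap another gene over 1 CPM in the table of the sex experiment.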
